A study of Mus musculus with 9 samples.

Results

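The genes described here are 10 that handle stored fat and the uptake of fatty acids: Plin1, Plin2, Plin3, Plin4, Plin5, Cidec, Pnpla2, Lipe, Cd36 and Lpl. They were picked by gene symbol from a table of 21049 mouse genes, and 9 of the 10 passed the filter for testing, which asked for 3 libraries with a value of 10 or more. Plin1 did not. Cidec passed it through its bronchial values alone, and Plin5 passed it only with the help of its arterial values. The study compared smooth muscle cells sorted from mouse lung by fluorescence, in 9 RNA-seq libraries of 3 groups. BSMC are bronchial smooth muscle cells from NVSMC-effector mice with the genotype Chrm2/Acta2-CreER/R26-GFP. PASMC are pulmonary arterial smooth muscle cells from ASMC-effector mice with the genotype Cspg4/Acta2-CreER/R26-GFP. The group written total_SMC is smooth muscle of the whole lung with its venous cells, from tg-Acta2-GFP mice, in which Acta2 sequences drive the GFP itself. All 9 libraries carry the label of tamoxifen, given over 3 days at 0.75 mg for each 10 g of body weight from a corn oil stock of 20 mg/mL. Every group is a mouse line of its own, so cells, line and sort change together and cannot be told apart. Nothing in the labels ties the 3 replicates of a group to separate mice, and p-values therefore measure the spread between libraries, which may be technical.

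A lipid droplet is a core of triglyceride and cholesteryl ester under a single phospholipid layer. Perilipins coat that layer and gate the access of lipases, CIDE proteins let small droplets merge into large ones, and adipose triglyceride lipase and hormone-sensitive lipase release the stored fatty acids in sequence. Fatty acids reach the cell from lipoproteins, which lipoprotein lipase hydrolyses at the capillary wall, and enter with the help of CD36. In lung these genes are best known from alveolar macrophages, capillary endothelium, type 2 cells and the lipid-storing fibroblasts of the alveolar wall.

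Values are normalized read counts, the read counts per gene scaled to a common level and rounded. Fold changes are differences of log2(value + 1) in limma with their standard error (SE), and the word called marks a difference with an adjusted p below 0.05 over the 15647 genes tested. Depth, read back from the spacing of the values as implied reads, ran from 6.39 to 10.02 M per library and was lowest in BSMC replicates 1 and 3. Whether PCR copies were removed is not stated in the sources used here, so the noise may exceed what counting gives. All 9 smooth muscle markers examined were tested, with a summed level of 3857 to 4680 CPM (counts per M) in BSMC, 3550 to 3995 in PASMC and 2941 to 3338 in total_SMC. Of these 9, 6 had a mean of over 1000 normalized reads per kb of transcript, a density at which counts may be limited, as described with Pnpla2, and the part of that limit in these sums was not tested. Chrm2, a gene named in the BSMC genotype, was at 155, 223 and 115 in BSMC, 398, 385 and 199 in PASMC and 240, 324 and 351 in total_SMC, so it was not highest in the libraries labelled BSMC. Cspg4, the gene named in the PASMC genotype, was at 1296, 1469 and 1778 in BSMC, 1958, 1658 and 2393 in PASMC and 585, 750 and 331 in total_SMC, with its highest mean in the libraries labelled PASMC. BSMC also held the highest level of leukocyte markers, 1052 to 1459 CPM over 14 genes, against 84.1 to 105 in PASMC and 235 to 302 in total_SMC.

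The start regions of 3 members are shown because their levels set total_SMC apart: Plin4 and Pnpla2 were lower there than in both other groups, and Cd36 was higher. Lpl was higher there too, but no RefSeq start was found for it, so its region is not shown. Each is 300 bases, 250 before and 50 after the start that RefSeq gives on GRCm38.p6, written 5′ to 3′ on the strand of the gene, with capitals marking matches to a searched motif on either strand.
Plin4, chr17:56109733-56110032, minus strand: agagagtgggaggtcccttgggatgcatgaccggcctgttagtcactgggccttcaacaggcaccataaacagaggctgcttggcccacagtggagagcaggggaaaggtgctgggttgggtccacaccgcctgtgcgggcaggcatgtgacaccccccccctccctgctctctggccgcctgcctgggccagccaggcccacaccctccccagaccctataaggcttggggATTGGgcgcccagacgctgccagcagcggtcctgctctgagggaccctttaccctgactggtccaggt
Pnpla2, chr7:141454938-141455237, plus strand: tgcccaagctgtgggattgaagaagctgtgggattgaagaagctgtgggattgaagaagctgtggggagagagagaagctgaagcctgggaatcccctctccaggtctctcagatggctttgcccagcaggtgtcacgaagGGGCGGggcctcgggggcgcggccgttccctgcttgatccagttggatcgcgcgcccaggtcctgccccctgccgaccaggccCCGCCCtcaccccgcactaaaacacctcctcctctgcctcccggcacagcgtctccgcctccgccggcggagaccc
Cd36, chr5:17835847-17836146, minus strand: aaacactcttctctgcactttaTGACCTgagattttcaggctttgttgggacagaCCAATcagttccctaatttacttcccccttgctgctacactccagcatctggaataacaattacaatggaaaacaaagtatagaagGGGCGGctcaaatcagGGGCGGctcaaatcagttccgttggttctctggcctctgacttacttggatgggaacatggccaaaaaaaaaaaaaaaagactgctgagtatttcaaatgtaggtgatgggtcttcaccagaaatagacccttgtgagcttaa

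In these windows Plin4 held the CCAAT box, Pnpla2 a pair of GC boxes (CCGCCC), and Cd36 a CCAAT box, a pair of GC boxes and the nuclear receptor half-site AGGTCA. GC content was 65% in Plin4, 65.3% in Pnpla2 and 43% in Cd36, against a median of 52.7% over 32851 promoters. RefSeq rows were found for 9 of the 10 members, 12 windows in all. CCAAT occurred in 5 of the 12 and in 37.41% of all promoters. CCGCCC occurred in 7 of the 12 and in 35.66% of all, AGGTCA in 4 of the 12 and in 16.26%, and the E-box CACGTG in 2 of the 12 and in 7.15%. The direct repeat of AGGTCA with 1 base between its copies, which contains the half-site, the CArG box of smooth muscle genes and the letters TATAAA occurred in 0 of the 12 windows, and in 0.04%, 1.63% and 13.62% of all promoters. These matches describe letters and not bound sites.

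Measured per kb of transcript, Pnpla2 was the most abundant member in the bronchial and arterial cells, and 4 members shared the top level in total_SMC. The order between genes depends on the length used. All annotated exons give 3020 bases for Pnpla2 against 1799 here, and 3512 for Plin2 against 1888. For Plin3 (3786 and 3645) and Cd36 (3590 and 3399) both lengths were close. The SDs below cover libraries and not the choice of length, and these levels were not computed with the longer lengths. In BSMC, Pnpla2 was at 1152 ± 267 normalized reads per kb (mean ± SD, n = 3 here and below). Plin2 at 571 ± 25.9 and Plin3 at 563 ± 36.0 followed and, on these lengths, did not differ beyond the spread of the libraries. Cd36 came next at 411 ± 62.6, then Lpl at 247 ± 27.9, Plin4 at 141 ± 18.4 and Lipe at 67.4 ± 2.10, each outside the SD of its neighbours on these lengths. The order of Lpl and Plin4 rests on the length of Lpl, 4115 bases here and 10478 with all annotated exons. In PASMC, Pnpla2 was at 1113 ± 88.3, and Plin3 at 509 ± 10.6 and Plin2 at 448 ± 72.7 overlapped. Cd36 at 264 ± 48.7 and Lpl at 240 ± 41.7 overlapped as well, ahead of Plin4 at 175 ± 6.64 and Lipe at 82.9 ± 17.9. In total_SMC the levels per kb of Cd36, 604 ± 97.5, Plin3, 602 ± 44.4, Plin2, 586 ± 41.4, and Pnpla2, 563 ± 82.9, lay within each other's SD, and Lpl at 408 ± 78.0 touched that of Pnpla2. Lipe at 82.6 ± 13.8 stood above Plin4 at 49.2 ± 8.86 in total_SMC, the reverse of their order in BSMC and PASMC on these lengths. All annotated exons give 5886 bases for Lipe against 3613 here, and 5777 for Plin4 against 5756. Those lengths would narrow the gap in total_SMC, so the reversal rests on the length chosen. Plin5, Cidec and Plin1 were at or under 10.2 reads per kb in each group.

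**Figure D1:**
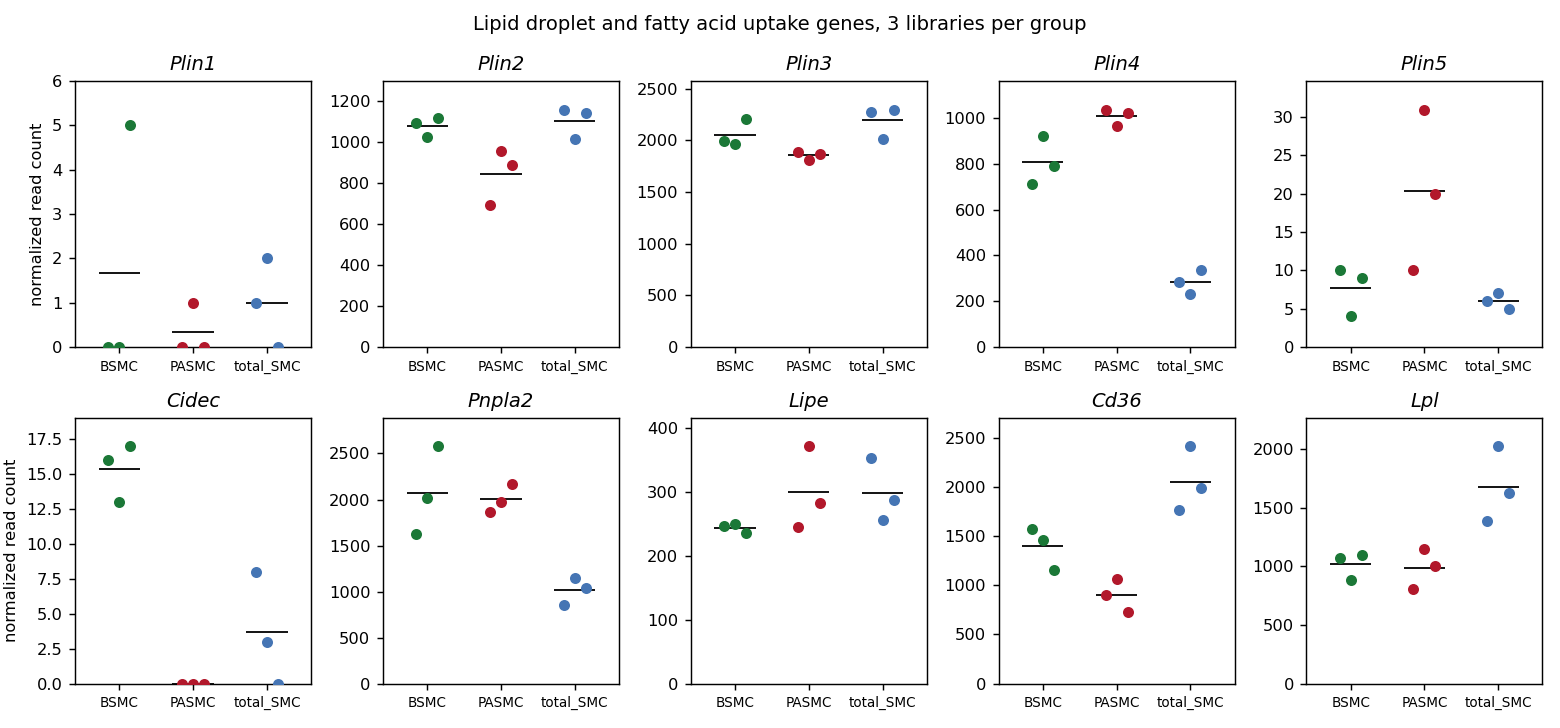
Normalized read counts of the 10 genes, 1 panel per gene with its own linear axis from 0; points are libraries, in the order of their replicate numbers, and bars are group means (n = 3). Plin4 and Pnpla2 sit lowest in total_SMC, Cd36 and Lpl highest there, and Plin1, Plin5 and Cidec stay at or under 31 reads in every library.

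Of the 9 members tested, 0 were called higher and 2 lower in PASMC than in BSMC, a comparison in which 22.1% of all genes tested were called (13.2% higher, 8.88% lower). Between total_SMC and PASMC 2 were called higher and 2 lower, against 16.2% of all genes (9.39% higher, 6.83% lower). Between total_SMC and BSMC 2 were called higher and 3 lower, against 41.9% of all genes (23.7% higher, 18.2% lower). The libraries of the groups did not overlap for 5, 7 and 6 of the 9 members in these comparisons, where 35.2%, 40.5% and 50.5% of all genes did not overlap. The median log2 fold change of the members was -0.05, 0.24 and 0.03, beside 0.05, 0.03 and 0.05 over all genes. At an unadjusted p under 0.05 in limma, 0 members were higher and 3 lower in the first comparison, 4 higher and 3 lower in the second and 2 higher and 3 lower in the third. These counts hold Cidec and Plin5, which the filter kept through 1 group, and nothing is read from them. Without both, the calls among 7 members were 0 higher and 1 lower, 2 higher and 2 lower, and 2 higher and 2 lower in the 3 comparisons. The comparisons share libraries, and no test was made of the members as a list. Without BSMC replicate 1 the members called between PASMC and BSMC were 0, as Cidec then missed the filter and Cd36 its call. The number of genes called over the whole table also rests on single libraries. Between PASMC and BSMC it was 3451, but 6364 without BSMC replicate 2, 2299 without BSMC replicate 3, 1827 without BSMC replicate 1, 1701 without PASMC replicate 1 and 1977 without PASMC replicate 2. Between total_SMC and PASMC it was 2539, but 1607, 1597 and 1610 without total_SMC replicates 1, 2 and 3, and between total_SMC and BSMC it was 6553, but 4254 without total_SMC replicate 3.

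**Figure D2:**
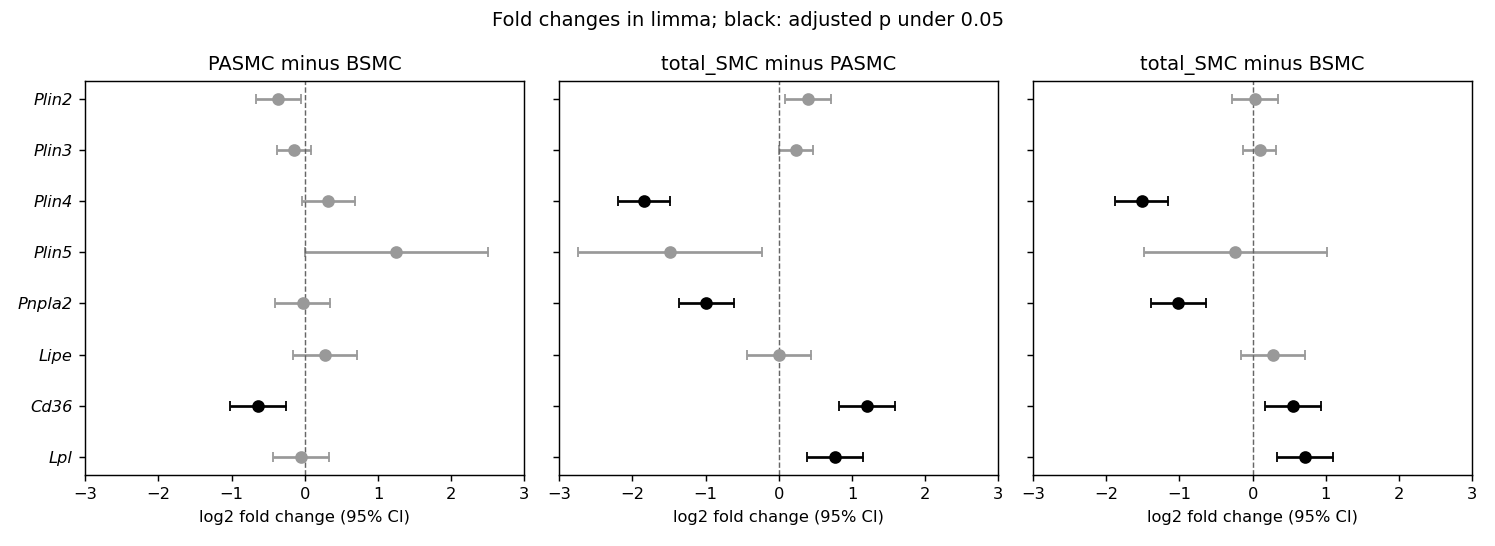
Log2 fold changes of 8 members in limma for the 3 comparisons, with 95% confidence intervals; black marks an adjusted p under 0.05 and grey the rest (Cidec, listed at 0 in PASMC, and Plin1, not tested, are left out). Plin4 and Pnpla2 lie to the left of 0 in both total_SMC panels, and Cd36 and Lpl to the right.

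The droplet coats divided into a pair present everywhere, a member that fell in total_SMC, and a pair near the detection limit. Plin2, the coat protein that is stable only on lipid and follows the amount stored (ENSMUSG00000028494, mm39 chromosome 4, 86566623 to 86588297, minus strand), had read counts of 1094, 1024 and 1118 in BSMC, 693, 957 and 890 in PASMC and 1160, 1016 and 1141 in total_SMC. Each PASMC library was under each library of the other groups. The log2 difference of PASMC from BSMC was -0.36 (SE 0.14, 95% interval -0.67 to -0.05) and missed the threshold (adjusted p = 0.0850), as did that of total_SMC from PASMC, 0.40 (SE 0.14, adjusted p = 0.0857). Total_SMC differed from BSMC by 0.03 (95% interval -0.28 to 0.35, adjusted p = 0.862). The first of these became a call after quantile normalization (adjusted p = 0.0391), cyclic loess (0.0385), scaling to CPM (0.0410) or without BSMC replicate 2 (0.0491), and the second with array weights (0.00851) or with only the 6 libraries compared (0.0409).

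Plin3, the coat that moves between cytosol and new droplets and also serves in vesicle traffic (ENSMUSG00000024197, chromosome 17, 56584476 to 56599873, minus strand), was at 1997, 1959 and 2203 in BSMC, 1883, 1811 and 1871 in PASMC and 2276, 2007 and 2297 in total_SMC. PASMC again held the 3 lowest libraries, by a small margin. The log2 differences were -0.14 for PASMC from BSMC (SE 0.11, adjusted p = 0.324), 0.24 for total_SMC from PASMC (SE 0.11, adjusted p = 0.163; 0.0148 with array weights, a call) and 0.09 for total_SMC from BSMC (95% interval -0.14 to 0.33, adjusted p = 0.484).

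Plin4, the perilipin that coats nascent droplets through a long run of repeats and is best known from white fat and skeletal muscle (ENSMUSG00000002831, chromosome 17, 56407591 to 56416803, minus strand), was the only perilipin called in any comparison. Its read counts were 713, 923 and 791 in BSMC, 1037, 964 and 1020 in PASMC and 282, 233 and 335 in total_SMC. The highest total_SMC library lay far under the lowest of the others. Plin4 in total_SMC was 0.281 times its mean in PASMC (log2 -1.84, SE 0.16, 95% interval -2.20 to -1.48, adjusted p = 2.998e-05) and 0.35 times that in BSMC (log2 -1.52, SE 0.16, adjusted p = 4.016e-05). Both calls held in all 21 alternatives of processing. PASMC lay above BSMC without overlap, but the difference of 0.32 did not pass (SE 0.16, 95% interval -0.04 to 0.68, adjusted p = 0.166). In sorted bulk cells, fewer cells that express a gene and less RNA per cell cannot be told apart, here and in all that follows.

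Plin4 shares exonic bases with Hdgfl2 on the opposite strand, and the library kit does not mark strand, so reads from the shared bases cannot be assigned. Hdgfl2, a chromatin-binding growth factor relative, was at 935, 1317 and 1344 in BSMC, 1234, 1213 and 1115 in PASMC and 831, 822 and 929 in total_SMC. Its difference of total_SMC from PASMC was -0.46 (SE 0.15, adjusted p = 0.0592) and its difference of total_SMC from BSMC, -0.46, was called (SE 0.15, adjusted p = 0.0303), in each case a smaller fold than that of Plin4.

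Markers of heart-type muscle, which sheathes the pulmonary veins in mice, had their lowest summed level in total_SMC, where Plin4 was lowest too. Their sums in BSMC and PASMC overlapped, with 1284 CPM in BSMC replicate 3 against 746 and 677 in BSMC replicates 1 and 2. Of 15 such markers tested, 0 were called higher and 10 lower in total_SMC than in PASMC, 0 higher and 11 lower than in BSMC, and 0 higher and 2 lower in PASMC than in BSMC. The shares of all genes called in these comparisons were 16.2%, 41.9% and 22.1%. Their summed level was 677 to 1284 CPM in BSMC, 600 to 750 in PASMC and 379 to 417 in total_SMC, and no marker of the list was at 0 in all 9 libraries. Of the 9 smooth muscle markers, 3 were lower in total_SMC than in PASMC and 6 lower than in BSMC, with 0 higher. Type 2 cell markers had sums in the order of Plin4, with 8 of 9 higher in PASMC than in BSMC, 6 lower in total_SMC than in PASMC, 2 higher and 6 lower in total_SMC than in BSMC, and sums of 441 to 600 CPM in BSMC, 892 to 949 in PASMC and 330 to 352 in total_SMC. Actc1, the largest single part of the cardiac sums, had a mean of 1769 normalized reads per kb. Sftpc, of the type 2 list, was at 1635. Counts may be limited at such densities, and the part of that limit in these sums was not tested. The part of these cells in the level of Plin4 was not tested either.

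Plin5, the perilipin that ties droplets to mitochondria in oxidative muscle (ENSMUSG00000011305, chromosome 17, 56418601 to 56424596, minus strand, 1797 bases from Plin4), was at 10, 4 and 9 in BSMC, 10, 31 and 20 in PASMC and 6, 7 and 5 in total_SMC. All 3 PASMC libraries were above those of total_SMC, yet PASMC replicate 2 alone held over 20 reads. The filter kept Plin5 through its PASMC values, so a difference from PASMC was partly built into its selection. The log2 differences were 1.25 for PASMC from BSMC (SE 0.57, adjusted p = 0.127), -1.49 for total_SMC from PASMC (SE 0.57, adjusted p = 0.108) and -0.24 for total_SMC from BSMC (95% interval -1.49 to 1.01, adjusted p = 0.757). The second was called with array weights (adjusted p = 0.0172) and with only the 6 libraries compared (0.0441). Plin1, the perilipin of large fat cell droplets (ENSMUSG00000030546, chromosome 7, 79369966 to 79382651, minus strand), was at 0, 0 and 5 in BSMC, 0, 1 and 0 in PASMC and 1, 2 and 0 in total_SMC, 9 reads in all. At this depth no group difference in Plin1 was detectable.

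Set against each other per kb on the same transcript lengths, Plin2 and Plin3 made up most of the perilipin reads in each library. The sum of the 5 perilipins was 1279.6 ± 53.0 reads per kb in BSMC, 1143 ± 64.4 in PASMC and 1240.0 ± 92.3 in total_SMC. Plin4 supplied 11.01 ± 1.66% of it in BSMC, 15.4 ± 1.39% in PASMC and 3.95 ± 0.481% in total_SMC. Plin3 supplied 44.0 ± 0.971%, 44.7 ± 3.33% and 48.5 ± 0.153%, and Plin5 0.300 ± 0.124%, 0.882 ± 0.422% and 0.246 ± 0.0593%. Plin2 supplied 46.1, 43.7 and 44.2% in the BSMC libraries, 34.3, 42.7 and 40.2% in PASMC and 47.6, 47.5 and 46.7% in total_SMC, and no pair of groups overlapped. The Plin2 share of PASMC differed from that of BSMC by -5.57 percentage points, and that of total_SMC was 8.15 points higher than in PASMC and 2.58 points higher than in BSMC. In an exact two-sided permutation test each of the 3 differences gave p = 0.1 (0.1 after adjustment over the 3), the smallest that 3 libraries against 3 allow, so none could pass.

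**Figure D3:**
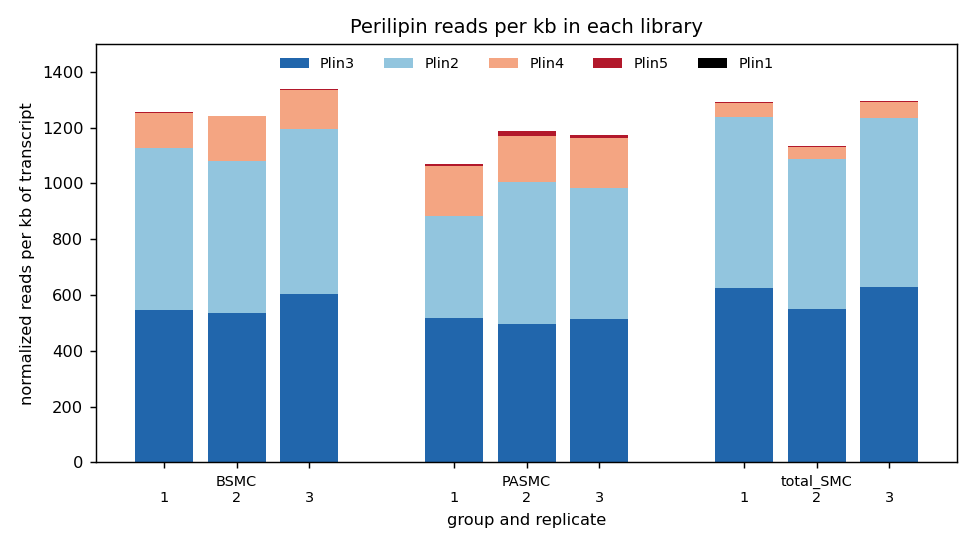
Normalized reads per kb of transcript for Plin1 to Plin5, stacked, in each of the 9 libraries. Plin3 and Plin2 fill most of every bar, and the Plin4 segment is widest in PASMC, at 167 to 180 reads per kb, and narrowest in total_SMC, at 40.5 to 58.2.

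Cidec, the CIDE protein that passes lipid from small to large droplets in white fat (ENSMUSG00000030278, chromosome 6, 113401595 to 113412721, minus strand), was found at low level and mostly in bronchial libraries. Its read counts were 16, 13 and 17 in BSMC, 0, 0 and 0 in PASMC and 8, 3 and 0 in total_SMC. Being listed at 0 throughout PASMC, it was called lower there than in BSMC (adjusted p = 0.00541) in all 17 alternatives that kept it, and no fold is given. The total_SMC libraries were likewise called lower than those of BSMC (log2 -2.30, SE 0.83, adjusted p = 0.0426), but this was lost in 10 of the 17, with an adjusted p of 0.0540 under a replicate block, 0.0553, 0.0539 and 0.0532 without PASMC replicates 1, 2 and 3, 0.0850 without total_SMC replicate 2 and 0.198 without total_SMC replicate 3. Since the filter kept Cidec for its BSMC values, such a difference was built into its selection.

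Leukocyte markers stood in the same order. All 14 of them were called lower in PASMC than in BSMC and lower in total_SMC than in BSMC, and 10 were called higher in total_SMC than in PASMC. The shares of all genes called in those directions were 8.88%, 18.2% and 9.39%. Ptprc, the CD45 antigen of all leukocytes, was at 760, 569 and 391 in BSMC, 0, 0 and 0 in PASMC and 0, 4 and 3 in total_SMC. The alveolar macrophage list had a summed level of 259 to 484 CPM in BSMC, 6.28 to 14.0 in PASMC and 13.1 to 19.3 in total_SMC, with 7 of 8 tested markers lower in each comparison with BSMC. In both lists part of the markers, Ptprc among them, passed the filter only with their BSMC values. For those a call of lower against BSMC was partly built into their selection. The part of leukocytes and macrophages in the Cidec reads was not tested. Of 11 white fat marker symbols 8 were in the table and 3 were tested, and the sum was 33.4 to 53.0, 22.9 to 29.3 and 19.2 to 25.2 CPM in BSMC, PASMC and total_SMC. Trarg1, a regulator of glucose transporter traffic in fat and muscle and the most abundant of them, was at 247, 250 and 403 in BSMC, 169, 191 and 129 in PASMC and 176, 146 and 124 in total_SMC. It was called lower against BSMC in PASMC (-0.86, adjusted p = 0.0325) and in total_SMC (-0.98, adjusted p = 0.00934). Another of the 3 tested, Adrb3, was called higher in PASMC than in BSMC (2.18, adjusted p = 0.0437), a call lost in 12 of 20 alternatives. Adrb3 was at 27, 2 and 4 in BSMC, 30, 35 and 34 in PASMC and 19, 19 and 21 in total_SMC. Car3, also tested, was not called in any comparison. Adiponectin (Adipoq) was at 0, 1 and 0 in BSMC, 0, 0 and 0 in PASMC and 2, 3 and 6 in total_SMC.

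The lipase that opens fat breakdown fell in total_SMC, and the next enzyme of the sequence did not pass in any comparison. Pnpla2, adipose triglyceride lipase, which takes the first fatty acid off triglyceride (ENSMUSG00000025509, chromosome 7, 141035111 to 141040656, plus strand), was at 1624, 2017 and 2579 in BSMC, 1860, 1975 and 2174 in PASMC and 853, 1148 and 1039 in total_SMC. Total_SMC held the 3 lowest values, while BSMC spread on both sides of PASMC. The mean in total_SMC was 0.506 times that in PASMC (log2 -0.99, SE 0.17, 95% interval -1.36 to -0.62, adjusted p = 0.00202) and 0.489 times that in BSMC (log2 -1.02, SE 0.17, adjusted p = 0.000802), and both calls held in all 21 alternatives. PASMC differed from BSMC by -0.03 (95% interval -0.40 to 0.35, adjusted p = 0.920).

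Pnpla2 is also the member most densely covered by reads. Its implied reads per base of transcript were 0.808 to 1.25 in BSMC, 1.09 to 1.27 in PASMC and 0.516 to 0.708 in total_SMC, so 5 libraries, all of BSMC or PASMC, reached 1. Across the table, the variance within a group divided by the mean had a median of 14.1 for genes at 0.4 to 0.7 reads per base, 12.5 at 0.7 to 1, 6.97 at 1 to 1.5 and 2.15 above 1.5. Whether a limit on counts at high density bears on Pnpla2 was not tested. Pnpla2 and Plin4 were thus among 753 genes (4.81% of those tested) that were lower in total_SMC than in both other groups.

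Lipe, hormone-sensitive lipase, which acts on diglyceride (ENSMUSG00000003123, chromosome 7, 25078952 to 25098135, minus strand), was at 247, 249 and 235 in BSMC, 245, 371 and 283 in PASMC and 353, 255 and 287 in total_SMC. Of the PASMC and total_SMC libraries, all but PASMC replicate 1 were above those of BSMC. The log2 differences were 0.28 for PASMC from BSMC (SE 0.20, adjusted p = 0.317), 0.00 for total_SMC from PASMC (95% interval -0.43 to 0.44, adjusted p = 0.999) and 0.28 for total_SMC from BSMC (SE 0.20, adjusted p = 0.272). The non-coding 4732471J01Rik overlaps exons of Lipe on the opposite strand, with 1 to 32 reads a library, which likewise cannot be separated from it without strand.

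Cd36 and Lpl ran the other way: both had their highest values in total_SMC, though the call of Cd36 against BSMC rested on the deposited scaling. Cd36, the fatty acid and oxidised lipoprotein receptor of endothelium, muscle, fat and macrophages (ENSMUSG00000002944, chromosome 5, 17986688 to 18093799, minus strand), was at 1568, 1465 and 1159 in BSMC, 901, 1060 and 729 in PASMC and 1763, 2415 and 1986 in total_SMC. The 3 groups did not overlap, with PASMC lowest and total_SMC highest. Total_SMC was at 2.29 times the mean of PASMC (log2 1.20, SE 0.18, 95% interval 0.82 to 1.58, adjusted p = 0.000706), a call that held in all 21 alternatives. A call of higher was made for total_SMC against BSMC too (1.47 times, log2 0.56, SE 0.18, adjusted p = 0.0253) and of lower for PASMC against BSMC (0.642 times, log2 -0.64, SE 0.18, adjusted p = 0.0237). The first of these was lost in 8 of 21 alternatives. Among them were all 4 other scalings, with an adjusted p of 0.0777 after quantile normalization, 0.0741 after cyclic loess, 0.0559 on implied reads and 0.0794 on CPM, and leaving out BSMC replicate 3 (adjusted p = 0.0800) or total_SMC replicates 2 (0.104) or 3 (0.0634). The second was lost in 6, among them leaving out BSMC replicate 1 (0.0883), PASMC replicate 1 (0.0693) or PASMC replicate 3 (0.0776), and implied reads without scaling (0.288).

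Lpl, lipoprotein lipase, which is made by parenchymal cells and works on the endothelial surface (ENSMUSG00000015568, chromosome 8, 69333143 to 69360100, plus strand), was at 1068, 886 and 1098 in BSMC, 806, 1148 and 1004 in PASMC and 1390, 2025 and 1627 in total_SMC. BSMC and PASMC overlapped and total_SMC lay above both. Lpl in total_SMC was 1.7 times its mean in PASMC (log2 0.77, SE 0.17, adjusted p = 0.0103) and 1.65 times that in BSMC (log2 0.71, SE 0.17, adjusted p = 0.00736). The call against BSMC held in all 21 alternatives, and that against PASMC was lost on implied reads without scaling (adjusted p = 0.0545), without PASMC replicate 1 (0.0509) and without total_SMC replicate 2 (0.0549). PASMC differed from BSMC by -0.05 (95% interval -0.43 to 0.33, adjusted p = 0.838). Cd36 and Lpl were among 1056 genes (6.75% of those tested) higher in total_SMC than in both other groups.

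Endothelial markers had their lowest level in PASMC and their highest in total_SMC, the order of Cd36. Of 16 tested, 0 were higher and 7 lower in PASMC than in BSMC, 11 higher and 1 lower in total_SMC than in PASMC, and 5 higher and 1 lower in total_SMC than in BSMC. The shares of all genes called in these comparisons were 22.1%, 16.2% and 41.9%. Their sum was 2049 to 2226 CPM in BSMC, 1664 to 2025 in PASMC and 2225 to 2643 in total_SMC. Cdh5, the VE-cadherin of endothelium, was at 350, 318 and 371, then 171, 209 and 173, then 420, 538 and 396 in the 3 groups. Fibroblast and mesothelial markers were higher in total_SMC: 5 of 9 fibroblast markers were higher there than in PASMC and 8 of 9 higher than in BSMC, with 0 lower, and so were 8 of 8 and 7 of 8 mesothelial markers. Between PASMC and BSMC, where Lpl was not called, 8 of 9 fibroblast markers were higher and 6 of 8 mesothelial markers lower in PASMC. The fibroblast sum was 1138 to 1447 CPM in BSMC, 2194 to 2544 in PASMC and 4104 to 4582 in total_SMC. Mesothelial markers summed to 98.5 to 215, 38.0 to 63.5 and 817 to 1009.8. Of 11 lipofibroblast markers, 5 were higher and 0 lower in PASMC than in BSMC, 2 higher and 1 lower in total_SMC than in PASMC, and 3 higher and 0 lower in total_SMC than in BSMC, with sums of 1831 to 1836, 2009.6 to 2197 and 1779 to 1974. Some of these markers, among them Dcn (mean of 1934 normalized reads per kb), Inmt (1797) and Mfap4 (1595), lay at densities where counts may be limited. The part of that limit in the sums was not tested. In none of these lists was a marker at 0 in all 9 libraries, and the part of these cells in the levels of Cd36 and Lpl was not tested.

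**Figure D4:**
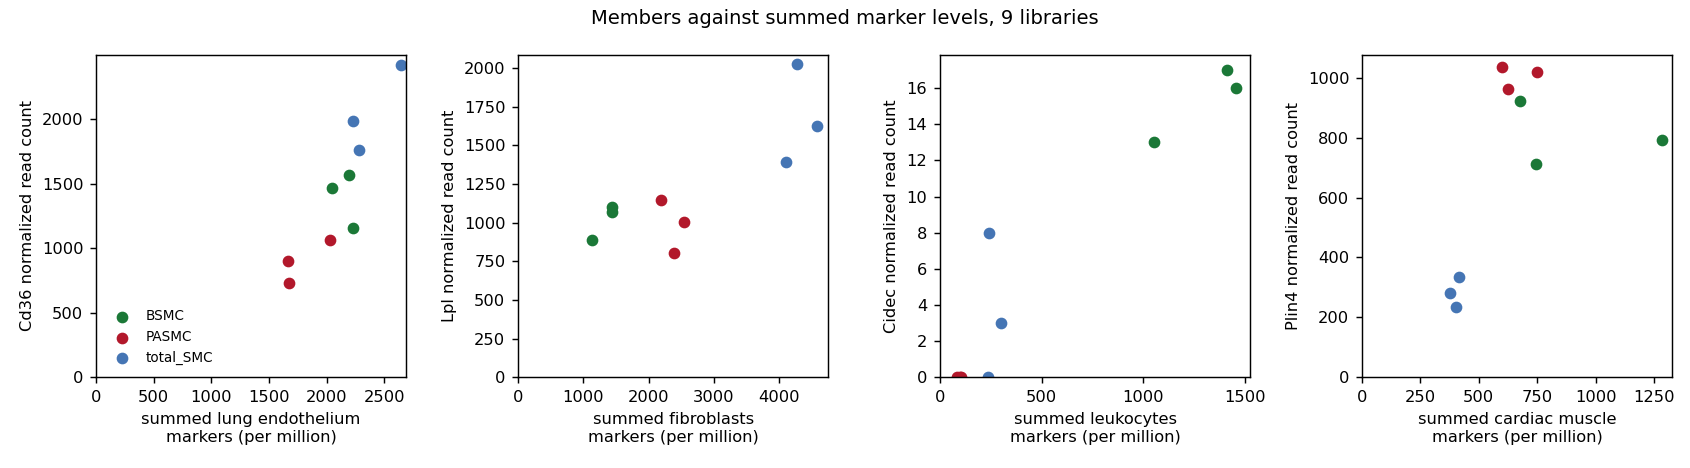
Normalized read counts of Cd36, Lpl, Cidec and Plin4 against the summed level of endothelial, fibroblast, leukocyte and cardiac muscle markers in CPM; each point is a library, coloured by group. PASMC sits lowest in the endothelial panel, total_SMC highest in the fibroblast panel, BSMC alone above 1000 CPM of leukocyte markers, and total_SMC lowest in the cardiac panel.

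The lipoprotein lipase system around Lpl was counted beside the shares of all genes, with no test of the list. Of 13 genes tested, 4 rose and 1 fell in PASMC against BSMC (median log2 0.16), where 13.2% of all genes rose and 8.88% fell. In total_SMC 3 rose and 0 fell against PASMC (0.33), where 9.39% of all genes rose, and 5 rose and 0 fell against BSMC (0.56), where 23.7% did. Gpihbp1, the endothelial anchor that carries lipoprotein lipase across capillaries, was at 293, 206 and 363 in BSMC, 66, 55 and 76 in PASMC and 436, 445 and 342 in total_SMC. It fell in PASMC against BSMC (log2 -2.09, SE 0.24, adjusted p = 0.000121) and was higher in total_SMC against PASMC (2.62, SE 0.24, adjusted p = 3.782e-05), with both calls held in all 21 alternatives; Gpihbp1 is also in the endothelial list. Angptl4, a secreted inhibitor of lipoprotein lipase, rose from 795, 1023 and 1279 in BSMC to 1950, 2173 and 2140 in PASMC (1.04, adjusted p = 0.00106) and 2822, 2266 and 2731 in total_SMC (1.36, adjusted p = 8.533e-05). Lrp1 (1.33 and 1.66), a large endocytic lipoprotein receptor, and Sel1l (0.97 and 1.44), which helps the lipase leave the endoplasmic reticulum, were called higher in PASMC and in total_SMC than in BSMC.

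Among proteins of uptake, binding and activation, 5 of 16 rose and 1 fell in PASMC against BSMC (median log2 0.14), 2 rose and 2 fell in total_SMC against PASMC (-0.24), and 6 rose and 4 fell in total_SMC against BSMC (-0.11). The shares of all genes called in these comparisons were 22.1%, 16.2% and 41.9%, and the list was not tested. Slc27a3, an acyl-CoA synthetase of the fatty acid transport protein family, was at 102, 82 and 109 in BSMC, 147, 195 and 184 in PASMC and 690, 475 and 568 in total_SMC. Its log2 difference of total_SMC was 1.71 from PASMC (SE 0.21, adjusted p = 0.000249) and 2.55 from BSMC (SE 0.21, adjusted p = 5.96e-06). For Slc27a3 PASMC was called higher than BSMC too (0.84, adjusted p = 0.0168), a call lost in 2 of 21 alternatives. Fabp3, the fatty acid binding protein of heart and muscle, moved with Plin4 instead: it was at 155, 118 and 154 in BSMC, 115, 91 and 129 in PASMC and 25, 32 and 37 in total_SMC, with log2 differences of -1.80 from PASMC (adjusted p = 0.000823) and -2.15 from BSMC (adjusted p = 0.000111). The fat cell binding protein Fabp4 fell in total_SMC against BSMC (-1.44, adjusted p = 0.00097). Acsl5, an acyl-CoA synthetase, rose in total_SMC against BSMC (0.67, adjusted p = 0.00289) and against PASMC (0.56, adjusted p = 0.0161). The latter call was lost in 5 of 21 alternatives.

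Calls among droplet assembly and storage genes were counted with no test of the list. Over all genes tested, 22.1% were called in PASMC against BSMC, 16.2% in total_SMC against PASMC and 41.9% in total_SMC against BSMC. Of 19 genes of the list tested, 3 rose and 1 fell in PASMC against BSMC (median log2 -0.12). In total_SMC 1 rose and 2 fell against PASMC (0.09), and 7 rose and 2 fell against BSMC (0.01). These counts moved with scaling: over the 4 other scalings they were 2 higher and 0 to 4 lower in PASMC against BSMC, and 6 to 7 higher and 2 to 6 lower in total_SMC against BSMC. Gpam, the mitochondrial enzyme that starts glycerolipid synthesis, was at 236, 447 and 285 in BSMC, 848, 780 and 704 in PASMC and 1202, 1208 and 1495 in total_SMC. Its log2 difference was 1.31 for PASMC from BSMC (SE 0.21, adjusted p = 0.0013) and 2.05 for total_SMC from BSMC (SE 0.21, adjusted p = 3.097e-05). Total_SMC was called higher than PASMC too for Gpam (0.74, adjusted p = 0.0352), a call lost in 8 of 21 alternatives. Cidea, the CIDE protein of brown fat, was at 367, 277 and 239 in BSMC, 213, 260 and 266 in PASMC and 53, 52 and 113 in total_SMC. Unlike Cidec it was found in every PASMC library, and it fell in total_SMC against PASMC (-1.84, SE 0.30, adjusted p = 0.00143) and against BSMC (-2.08, SE 0.30, adjusted p = 0.000295). Lpin2, a phosphatidate phosphatase, was higher in PASMC (1.26) and total_SMC (1.53) than in BSMC.

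Lipolysis partners gave no single direction. Of 13 tested, 3 rose and 3 fell in PASMC against BSMC (median log2 0.23), 1 rose and 1 fell in total_SMC against PASMC (0.10), and 4 rose and 2 fell in total_SMC against BSMC (0.19). Over all genes tested, 22.1%, 16.2% and 41.9% were called in these comparisons, and the list was not tested. Of the direct partners of adipose triglyceride lipase, its inhibitor G0s2 was not called in any comparison (0.48 for total_SMC from PASMC, adjusted p = 0.255). Its activator Abhd5 rose in total_SMC against BSMC (0.72, adjusted p = 0.0306). That call was lost in 10 of 21 alternatives, among them leaving out BSMC replicate 3 or any total_SMC replicate. Mgll, the monoglyceride lipase that ends the sequence, was at 1899, 1450 and 2079 in BSMC, 1172, 1214 and 1320 in PASMC and 907, 819 and 812 in total_SMC. It fell in total_SMC against BSMC (-1.08, SE 0.14, adjusted p = 0.000163), as did Pnpla2. Unlike Pnpla2, Mgll was also called lower in PASMC than in BSMC (-0.54, adjusted p = 0.0225 in limma). For Mgll total_SMC was lower than PASMC as well (-0.55, adjusted p = 0.0227). These further calls were lost in 7 and 6 of 21 alternatives. Ces1d, a carboxylesterase of droplets in lung and fat, was at 222, 206 and 142 in BSMC, 908, 654 and 689 in PASMC and 733, 840 and 825 in total_SMC, higher in both than in BSMC (1.99, adjusted p = 4.138e-05, and 2.09, adjusted p = 1.488e-05). Lipa, the lysosomal acid lipase, rose in total_SMC against BSMC (0.85, adjusted p = 0.000371) and against PASMC (0.63, adjusted p = 0.00544). The latter call was lost in 1 of 21 alternatives.

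Regulators of fat storage showed 3 of 18 higher and 1 lower in PASMC against BSMC, 0 higher and 3 lower in total_SMC against PASMC (median log2 -0.12), and 3 higher and 6 lower in total_SMC against BSMC (-0.09). Under the 4 other scalings the last counts were 2 to 3 higher and 2 to 7 lower. Of all genes tested, 22.1%, 16.2% and 41.9% were called in the 3 comparisons, in the same order, and the list was not tested. Ppargc1b, a coactivator of mitochondrial genes, was at 89, 107 and 91 in BSMC, 136, 110 and 133 in PASMC and 33, 40 and 60 in total_SMC. Its fall in total_SMC against PASMC was called (-1.53, SE 0.28, adjusted p = 0.00278). So was its fall against BSMC (-1.13, adjusted p = 0.0077), a call lost in 1 of 21 alternatives. Pparg, the nuclear receptor that drives many fat storage genes, was at 148, 174 and 125, then 180, 175 and 157, then 108, 75 and 96 in the 3 groups. The calls were lower in total_SMC against PASMC (-0.88, SE 0.23, adjusted p = 0.0200) and against BSMC (-0.68, SE 0.23, adjusted p = 0.0325), and these calls were lost in 5 and 8 of 21 alternatives, with an adjusted p of up to 0.0912 and 0.190. Klf15, a glucocorticoid-responsive factor of muscle and fat, fell in total_SMC against PASMC (-0.63, adjusted p = 0.00779) and against BSMC (-0.68, adjusted p = 0.00252).

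**Figure D5:**
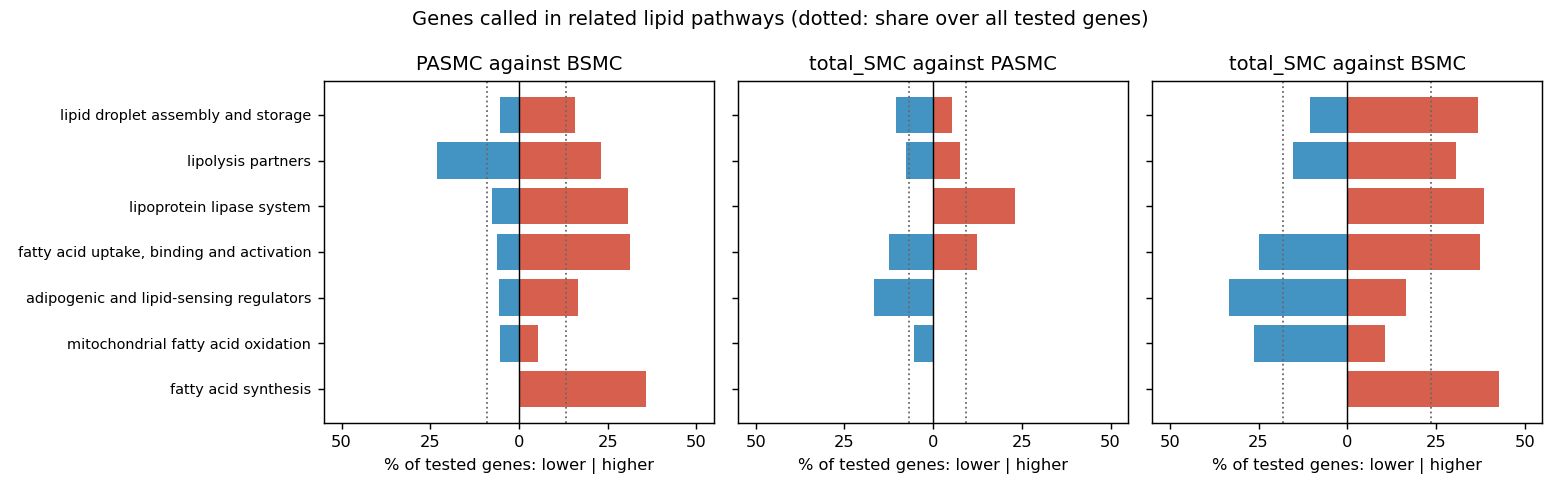
Share of tested genes called lower (left, blue) and higher (right, red) in 7 related lists for each comparison; dotted lines give the shares over all 15647 tested genes. Fatty acid synthesis has calls to the right and none to the left in the comparisons with BSMC, and no calls between total_SMC and PASMC.

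The genes whose pattern over the 9 libraries was most like that of a member were looked up by Pearson's r of log2(value + 1) among 10314 genes with a mean of at least 100. The 9 libraries fall into 3 groups, which all these values share, so r is a description. Closest to Plin4 were Hyal1 (r = 0.994), a hyaluronidase, Aoc3 (0.991), the vascular amine oxidase also abundant in fat cells, and Klhl30 (0.990). Aoc3 was at 2252, 3004 and 2148 in BSMC, 3044, 2791 and 2876 in PASMC and 1189, 1035 and 1347 in total_SMC. Closest to Pnpla2 were Pnkd (0.980), Mtss2 (0.976) and Six5 (0.973). Closest to Cd36 were N4bp3 (0.972), Nostrin (0.972), an endothelial adaptor, and Adgrl4 (0.955), an endothelial adhesion receptor. Closest to Lpl were Tdo2 (0.945), Galk2 (0.934) and Jdp2 (0.931). Closest to Cidec were Cyth4 (0.952), Cybb (0.948), the phagocyte oxidase subunit, and Rsl24d1 (0.944). Cybb was at 684, 536 and 535 in BSMC, 0, 0 and 0 in PASMC and 12, 10 and 2 in total_SMC.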

How the data were processed

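RNA of sorted cells was purified on columns with DNase, and at most 10 ng went into a SMART-Seq v4 library, per the labels' protocols. The deposited values, given the unit score, are read counts per gene that the authors normalized by a factor per library and rounded; this was read from the values. The submitters' processing notes name DESeq2 1.36.0, featureCounts 2.0.4, Picard 3.1.1, STAR 2.7.11a, Trimmomatic 0.39 and mm39, with no role or order. Because the values are not raw counts, limma 3.58.1 in R 4.3.3 was used on log2(value + 1): genes reaching 10 in 3 or more libraries, 1 fit of 3 group means over all 9 libraries, eBayes with trend and robust options, and Benjamini-Hochberg adjustment. Scripts were tested on simulated data. The factor of each library was recovered from the spacing of its values, and implied reads are value divided by factor. Normalized totals were 7.98 to 9.41 M. No library was a copy of another of its group (chi-square per gene 6.52 to 32.8 over 9 pairs).

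Levels per kb use the longest principal transcript of GENCODE vM21, matched by gene identifier; 96.7% of genes have an exon length there. Coordinates are those of the table (mm39) except for promoters. The members, lists and tests were chosen with earlier results of these data known. All members are named, and so are the 3 genes most like each called member. Of each list, up to 3 called genes per direction were picked whose higher group had a mean from 100 upward. The text gives a part of these. Chrm2, Cspg4, Ptprc, Adipoq, Trarg1, Adrb3, Car3, Cdh5, G0s2 and Abhd5 were chosen after their values were seen. Lep, Retn, Ucp1, Elovl3 and Otop1 were looked up as markers but were not found by symbol among the 21049 genes. Tusc5, an older symbol of Trarg1, is among the 11 white fat marker symbols and was not found either, so this gene stands in that count under both symbols. The alternatives were other pseudocounts (0.5, 5), filters, normalizations, weights and fits, a replicate block and leaving out each library. Other steps used pandas 2.3.3, numpy 2.4.6, scipy 1.17.1 and matplotlib 3.10.9 under Python 3.11.15.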

Additional observations from a re-analysis of the deposited data

How the results depend on the processing

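Of 552 member fold changes over 21 alternatives, 491 kept their direction and their side of the threshold, 27 lost a call, 9 gained one and 25 changed sign, none of the last among the 11 called results, of which 4 lost a call somewhere. Changes of sign were all in uncalled differences. PASMC minus BSMC became 0.0873 for Plin3, 0.205 for Pnpla2 and 0.178 for Lpl on implied reads; Pnpla2 became 0.0331 with array weights. With a library left out, it ran from -0.190 to 0.143 for Pnpla2 (above 0 without BSMC replicate 3 or PASMC replicate 1) and from -0.171 to 0.0840 for Lpl (above 0 without the same libraries). Total_SMC minus PASMC for Lipe became -0.0608 (quantile), -0.0440 (loess), -0.0467 (implied reads), -0.0622 (CPM) and -0.0142 (array weights), and ran from -0.132 to 0.166 with a library left out (under 0 without PASMC replicate 1 or 3 or total_SMC replicate 1). Total_SMC minus BSMC became -0.131, -0.100 and -0.124 for Plin2 and -0.0578, -0.0402 and -0.0638 for Plin3 (quantile, loess, CPM), ran from -0.0028 to 0.0939 for Plin2 with a library left out (under 0 without BSMC replicate 2 or total_SMC replicate 1), and became 0.153 for Plin5 (loess). Members called between PASMC and BSMC were 1 with a minimum of 50, on implied reads, without trend and robust options and with only the 6 libraries compared, and 0 to 2 when a library was left out; between total_SMC and PASMC 7 with array weights and 3 to 4; between total_SMC and BSMC 3 with cyclic loess or implied reads, and 3 to 5. All genes called were 1926 between PASMC and BSMC with only the 6 libraries compared (1701 to 6364 when a library was left out), and between total_SMC and PASMC 5082 with array weights and 4345 with the 6 libraries (1597 to 3205); between total_SMC and BSMC they ran from 4254 to 8056. The Plin2 share difference ran from -7.38 to -3.20, 5.78 to 9.96 and 2.09 to 3.32 points with a library left out, and was -4.66, 7.01 and 2.35 points with the length of all annotated exons, an alternative chosen after seeing the data. Calls higher and lower were 2062 and 1389 between PASMC and BSMC but 2017 and 2072 (quantile), 1891 and 690 (implied reads) and 1908 and 2218 (CPM); between total_SMC and BSMC they were 3706 and 2847 but 3217 and 4049, 3392 and 1554, and 3133 and 4148. Implied reads moved the median fold of all genes by 0.27 and 0.22 in these comparisons. The causes were not tested.

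A replicate block gave 3287, 2286 and 6350 genes called and ended the Cidec call between total_SMC and BSMC (adjusted p = 0.0540) and no other member's. Deviations of same-numbered libraries correlated at -0.124 to 0.136 over 9 pairs, 1 of them over 0.1, so the numbers were not taken to pair the libraries. Of 100 calls among genes of the 7 lists, 59 held in every alternative run, 41 were lost in at least 1 and 0 changed sign; this count was also added after seeing the data. Depth limits Plin1, Plin5 and Cidec, whose differences rest on at most 31 reads a library.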

Other observations

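Fatty acid synthesis genes called in the comparisons with bronchial cells were all higher than there. Of 14 genes tested, 5 were higher and 0 lower in PASMC than in BSMC (median log2 0.47), 6 higher and 0 lower in total_SMC than in BSMC (0.47), and 0 were called in limma between total_SMC and PASMC (0.05), where 2 were higher and 0 lower at an unadjusted p under 0.05. Over all genes 13.2% and 23.7% were called higher and 8.88% and 18.2% lower in the comparisons with BSMC. Between total_SMC and PASMC 16.2% were called. Under the 4 other scalings these counts stayed at 5 and 6 higher with 0 lower. Markers of other cells differed between PASMC and BSMC too: 8 of 9 type 2 cell, 8 of 9 fibroblast and 5 of 11 lipofibroblast markers were higher in PASMC with 0 lower, and 14 of 14 leukocyte markers were lower. In total_SMC against BSMC, 8 of 9 fibroblast markers were higher, 14 of 14 leukocyte markers lower, and 2 type 2 cell markers higher and 6 lower. Their part in the synthesis genes was not tested. Part of the leukocyte markers passed the filter only with their BSMC values, which built in part of their calls. Fasn, the fatty acid synthase, was at 412, 358 and 391 in BSMC, 1228, 1072 and 1103 in PASMC and 996, 1021 and 1020 in total_SMC, with log2 differences of 1.55 (SE 0.13, adjusted p = 1.165e-05) and 1.39 (SE 0.13, adjusted p = 1.164e-05) from BSMC. Scd1, the desaturase that makes oleate, was at 765, 536 and 412, then 1707, 1453 and 1484, then 1231, 1191 and 1116, with differences of 1.48 (adjusted p = 0.000286) and 1.09 (adjusted p = 0.00109). Scd2 (0.84 and 1.29) and Acacb (0.90 and 1.56), the acetyl-CoA carboxylase at mitochondria, were called in the same direction.

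Mitochondrial fatty acid oxidation had calls in both directions. Of 19 genes tested, 1 was higher and 1 lower in PASMC than in BSMC, 0 higher and 1 lower in total_SMC than in PASMC, and 2 higher and 5 lower in total_SMC than in BSMC, or 2 to 3 higher and 1 to 7 lower under the 4 other scalings. Over all genes tested, 22.1%, 16.2% and 41.9% were called in these comparisons, and the list was not tested. Cpt1a, the carnitine transferase that admits fatty acids to mitochondria, was at 671, 1589 and 989 in BSMC, 2208, 2420 and 2106 in PASMC and 1990, 2035 and 2409 in total_SMC (1.14, adjusted p = 0.00648, and 1.07, adjusted p = 0.00466, from BSMC). Acads, the short-chain acyl-CoA dehydrogenase, was at 313, 459 and 417, then 407, 394 and 360, then 207, 210 and 213 in the 3 groups, and fell in total_SMC against PASMC (-0.88, adjusted p = 0.00498) and against BSMC (-0.89, adjusted p = 0.00214).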
